A study of Homo sapiens with 8 samples.

Results

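The calnexin-calreticulin cycle is the part of the endoplasmic reticulum (ER) that folds glycoproteins by reading the glucose on their N-linked glycans. Its 7 genes studied here are CANX, CALR, UGGT1, UGGT2, GANAB, PRKCSH and MOGS. They were taken by symbol, through RefSeq names for NCBI Gene IDs, and all 7 have a row among the 18555 genes of the deposited count table. The rule that takes them uses no measured value.

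MOGS is glucosidase I, which removes the outermost glucose from a newly attached glycan. GANAB is the catalytic and PRKCSH the regulatory subunit of glucosidase II, which trims the inner glucoses. The glycan with a single glucose left is held by the lectin chaperones calnexin (CANX, anchored in the ER membrane) and calreticulin (CALR, soluble in the lumen, where it also binds calcium). UGGT1 senses folding and puts a glucose back on glycoproteins that are not yet folded, which returns them to the chaperones, and UGGT2 is its paralogue. XBP1s, the spliced form of XBP1, is a transcription factor of the unfolded protein response that acts on many genes of the secretory pathway.

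RNA-seq was done on 3 siXBP1 and 3 siNC libraries of cells labelled HepG2, an established human line from a liver tumour. Cells of the siXBP1 group received an siRNA specific to XBP1 and those of the siNC group the Allstar control siRNA. All 6 were then given 30 nM thapsigargin, which blocks the ER calcium pump and causes ER stress, for 3 hours, 2 days after transfection, so no library shows cells without ER stress. Whether the replicates are separate cultures is not stated, and p-values measure the spread between these libraries, which may be technical. The series also has 2 ChIP-seq samples for XBP1s, which were not analysed here.

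Library totals ran from 38209972 to 38890070 counts. XBP1, the target of the siRNA, had 290.0, 299 and 276 CPM (counts relative to the library total) in siXBP1 libraries, against 552, 502 and 499.6 CPM in siNC libraries, a log2 fold change of -0.84 (SE 0.08, adjusted p = 0.0331 from edgeR). That change lay between -0.88 and -0.80 with each library left out, but it missed the threshold without siXBP1 replicate 1 or 2 or siNC replicate 2 or 3. Of 11 hepatocyte markers 5 had a row, and 4 of these 5 had a mean below 1 CPM. ALB, APOA1, APOB, APOH, TTR and FGB had no row. Of 7 genes listed as markers of other epithelial lines, VIM and CDH2 included, 5 had a mean of at least 1 CPM, with KRT17 at 3364 CPM. A first principal component held 59.1% of the variance between libraries and placed siXBP1 replicate 3 (-0.65) and siNC replicate 1 (0.64) at its ends and the other 4 between -0.29 and 0.24. Because these end libraries stand apart, results are also given without them. On that component the siXBP1 libraries then left (0.24 and 0.14) lie above the siNC libraries left (-0.29 and -0.08). Group and component cannot be told apart among these 4, so estimates without both end libraries may be shifted.

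Promoters are shown first, because the ER stress element (ERSE), through which ATF6 and XBP1s are known to act, was found in the lectin chaperones and in none of the enzymes with a window. RefSeq windows of GRCh38.p14, from 250 bases before to 50 bases after a start site, were found for 6 of the 7 genes, all but MOGS. A gene may have more than 1 start site. The windows of CANX lie inside its span on the chromosome, which begins at base 179678656, and none covers that base. An ERSE was searched as CCAAT, any 9 bases and CCACG, on both strands, so each match contains a CCAAT box. The windows of CANX, CALR and, as the member with the highest fold change, GANAB are given 5′ to 3′ on the gene's strand. Capitals mark the fixed letters of an ERSE and any other CCAAT box on either strand, and one on the opposite strand is seen as its complement.
CANX, chr5:179698679-179698978, plus strand: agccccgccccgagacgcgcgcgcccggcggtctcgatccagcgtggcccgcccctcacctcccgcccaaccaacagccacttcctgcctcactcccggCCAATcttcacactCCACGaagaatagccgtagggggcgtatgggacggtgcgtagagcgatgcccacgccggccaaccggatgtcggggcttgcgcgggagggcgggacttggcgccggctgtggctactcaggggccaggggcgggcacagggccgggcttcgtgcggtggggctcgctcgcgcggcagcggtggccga
CALR, chr19:12938359-12938658, plus strand: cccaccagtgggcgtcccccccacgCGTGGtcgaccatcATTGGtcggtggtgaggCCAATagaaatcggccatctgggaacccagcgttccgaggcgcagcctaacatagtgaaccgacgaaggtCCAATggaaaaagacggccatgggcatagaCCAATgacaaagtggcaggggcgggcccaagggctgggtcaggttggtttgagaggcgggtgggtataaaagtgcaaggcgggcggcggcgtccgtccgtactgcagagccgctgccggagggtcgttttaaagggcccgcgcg
GANAB, chr11:62646564-62646863, minus strand: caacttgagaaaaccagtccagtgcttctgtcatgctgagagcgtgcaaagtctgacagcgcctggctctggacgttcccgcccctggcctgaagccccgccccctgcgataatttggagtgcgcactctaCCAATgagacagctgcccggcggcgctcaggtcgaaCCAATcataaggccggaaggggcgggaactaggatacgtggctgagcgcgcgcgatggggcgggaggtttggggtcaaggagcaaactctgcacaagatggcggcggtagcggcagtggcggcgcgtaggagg

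CANX and CALR each held 1 ERSE match, and UGGT1, UGGT2, GANAB and PRKCSH held none. In CANX the match began at position -151 from the start site of the window shown, and 3 of the 4 CANX windows contained it. In CALR it lay on the opposite strand, at position -225. GANAB had 2 CCAAT boxes and no ERSE. The matched letters, with the unfixed bases in lower case, are set beside those of HSPA5 (the abundant ER chaperone BiP) and of XBP1 itself.
CANX: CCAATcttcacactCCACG
CALR: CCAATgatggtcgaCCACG
HSPA5: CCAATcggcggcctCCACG
XBP1: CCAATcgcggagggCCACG
An ERSE was rare, with a match in 27 of 35116 windows (0.0769%) and in 19 of the 13912 genes that have both a window and a count row (0.137%). Neither the related ERSE-II (ATTGG, any base and CCACG) nor the UPRE (TGACGTGG), searched on both strands, matched in any window of a cycle gene. ERSE-II was found in 0.0541% and the UPRE in 0.729% of all windows. A match describes letters only, and binding was not measured here.

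No gene of the cycle passed the test between siXBP1 and siNC. Counts were tested with edgeR's quasi-likelihood test, and p-values were adjusted by Benjamini-Hochberg over the 14337 genes that entered the test, and 0.05 was the threshold. All 7 genes passed the filter on low counts in these libraries, and 0 were called lower and 0 higher, with adjusted p = 1.00 for each. In these bulk libraries fewer cells of a type and less RNA per cell cannot be told apart. Among all genes tested XBP1 alone was called lower (0.00697%) and none higher (0%). At an unadjusted p under 0.05 the cycle had 0 genes in either direction, where 1.7% of all genes were lower and 1.9% higher. DESeq2 also called 0 of the 7, where it called 0.0628% of all genes lower and 0.0418% higher. The estimates were lower in siXBP1 for 5 of the 7 genes and higher for 2, beside 47.2% lower and 52.8% higher among all genes tested. Their median log2 fold change was -0.08, beside 0.0096 over all genes. The 2 genes with an ERSE, CANX and CALR, had estimates of -0.09 each.

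**Figure D1:**
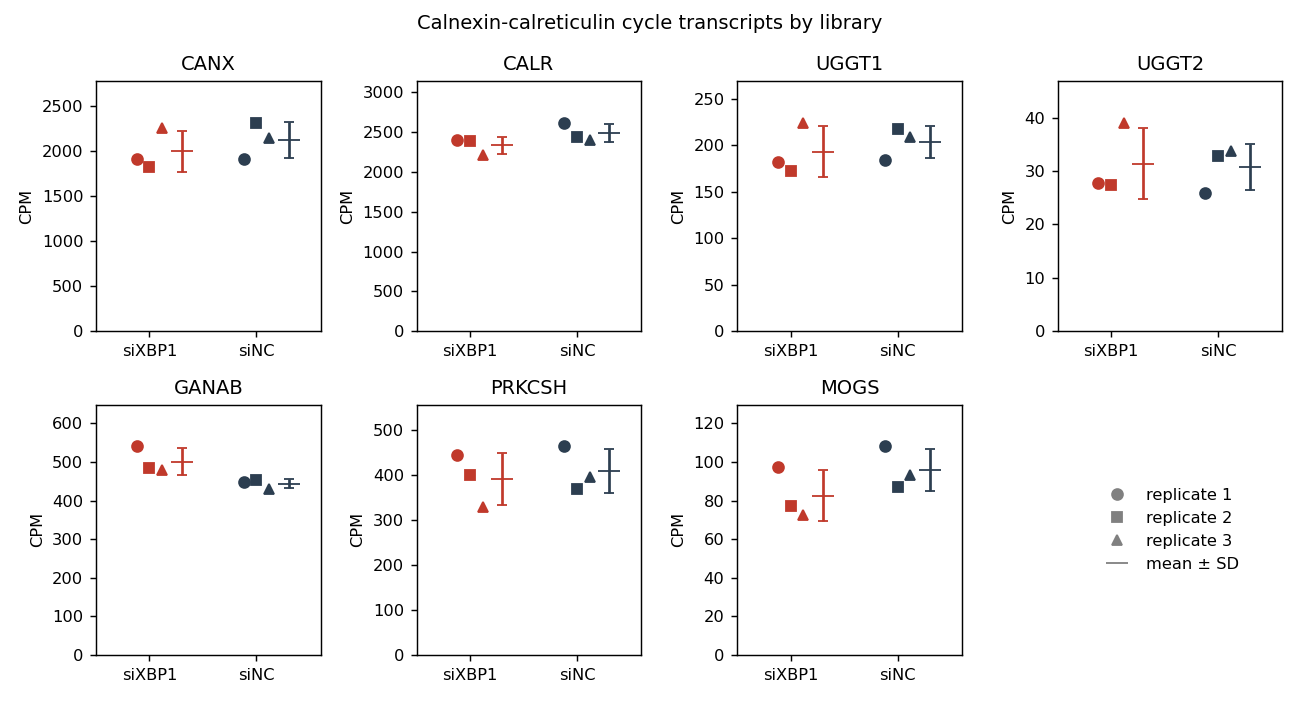
CPM of each cycle gene by library, on linear axes from 0, with siXBP1 libraries left and siNC libraries right in each panel and the mean ± SD (n = 3) beside the points. Groups overlap for 5 genes, while CALR is lower in all 3 siXBP1 libraries and GANAB higher.

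Neither lectin chaperone passed the test. CALR (gene ID 811, GRCh38.p14 chromosome 19, 12938609 to 12944489) had 2396, 2392 and 2215 CPM in siXBP1 libraries, against 2618, 2436 and 2405 CPM in siNC libraries. All 3 siXBP1 values lay below the lowest siNC value, with 2396 against 2405 CPM at the closest, and siXBP1 replicate 3 was the lowest library. CPM leave out the scaling factors of the edgeR test, which were 0.984 for siXBP1 replicate 2 and 0.9998 for siNC replicate 3. With these factors siXBP1 replicate 2 lies above siNC replicate 3, so the separation depends on the scaling. The means were 2334 ± 104 CPM in siXBP1 and 2486.5 ± 115 CPM in siNC (SD, n = 3 each). This is a log2 fold change of -0.09 (SE 0.07), with a 95% interval of -0.26 to 0.08, and it ranged from -0.12, without siNC replicate 3, to -0.05, without siNC replicate 1, with 1 library left out. In CPM, CALR was the only cycle gene lower without overlap, where 3.74% of all genes tested were.

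CANX (gene ID 821, chromosome 5, 179678656 to 179731641) had 1915, 1829 and 2257 CPM in siXBP1 libraries, against 1915, 2316 and 2142 CPM in siNC libraries. The groups overlapped throughout, with siXBP1 replicate 3 near the highest siNC library and siNC replicate 1 level with siXBP1 replicate 1. Means were 2000.4 ± 226 CPM in siXBP1 and 2125 ± 201 CPM in siNC (SD, n = 3 each). The log2 fold change was -0.09 (SE 0.10, 95% interval -0.31 to 0.14). With 1 library left out it ranged from -0.19, without siXBP1 replicate 3, to -0.03, without siNC replicate 2. Intervals of both chaperones exclude a fall as large as that of XBP1.

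The ratio of CALR to CANX counts, which needs no scaling between libraries, was 1.25, 1.31 and 0.981 in siXBP1 libraries, against 1.37, 1.05 and 1.12 in siNC libraries. The lowest and the highest ratio belonged to the end libraries of the first component, siXBP1 replicate 3 and siNC replicate 1. The mean log2 ratio differed by -0.0027 between siXBP1 and siNC (two-sided exact permutation test, p = 1.00, where 0.1 is the smallest p that 3 against 3 allow). The difference became 0.12 without siXBP1 replicate 3, 0.11 without siNC replicate 1 and 0.24 without both.

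The glucosidases included the gene with the highest and the gene with the lowest estimate. GANAB (gene ID 23193, chromosome 11, 62624829 to 62646613) had 540.1, 485 and 478 CPM in siXBP1 libraries, against 449, 453 and 430.3 CPM in siNC libraries. Every siXBP1 value was above every siNC value, and siXBP1 replicate 1 was the highest. Means were 501 ± 34.0 CPM in siXBP1 and 444 ± 12.04 CPM in siNC (SD, n = 3 each), or 113% of siNC in siXBP1. The log2 fold change was 0.18 (SE 0.08, 95% interval -0.0065 to 0.36, edgeR unadjusted p = 0.0572, adjusted p = 1.00). It lay between 0.12 and 0.20 with each library left out in turn. GANAB was the only cycle gene higher without overlap, where 5.01% of all genes tested were, and 84.3% of all genes tested had a log2 fold change no higher than that of GANAB.

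PRKCSH (gene ID 5589, chromosome 19, 11435635 to 11450968), whose product pairs with that of GANAB in glucosidase II, had 445, 401 and 329.7 CPM in siXBP1 libraries, against 464, 369 and 395 CPM in siNC libraries. The groups overlapped, and the end libraries held both extremes. Means were 392.01 ± 58.2 CPM in siXBP1 and 409 ± 49.1 CPM in siNC, a log2 fold change of -0.06 (SE 0.13, 95% interval -0.34 to 0.22). It turned to 0.04 without siXBP1 replicate 3 or without siNC replicate 1 and to 0.15 without both.

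The ratio of GANAB to PRKCSH counts was 1.21, 1.21 and 1.45 in siXBP1 libraries, against 0.967, 1.23 and 1.09 in siNC libraries. This ratio was chosen after its values were seen. It was highest in siXBP1 replicate 3 and lowest in siNC replicate 1, and the groups overlapped through siNC replicate 2. The mean log2 ratio differed by 0.24 (two-sided exact permutation test, p = 0.3, where 0.1 is the smallest possible), with a range of 0.15 to 0.33 when each library was left out and 0.07 without both end libraries.

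MOGS (gene ID 7841, chromosome 2, 74461057 to 74465382) had 97.5, 77.1 and 72.7 CPM in siXBP1 libraries, against 108, 86.9 and 93.0 CPM in siNC libraries. The groups overlapped because siXBP1 replicate 1 lay above the lower siNC libraries. Means were 82.4 ± 13.2 CPM in siXBP1 and 96.0 ± 10.9 CPM in siNC, and the log2 fold change of -0.22 (SE 0.13, 95% interval -0.52 to 0.08) was the lowest of the cycle. Without both end libraries it was -0.04, and without siXBP1 replicate 1 it was -0.35.

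The glucose sensors overlapped between the groups. UGGT1 (gene ID 56886, chromosome 2, 128091200 to 128195677) had 182, 172 and 224 CPM in siXBP1 libraries, against 184, 218 and 209.6 CPM in siNC libraries. The highest and the lowest library both belonged to siXBP1. Means were 193 ± 27.6 CPM in siXBP1 and 204 ± 17.5 CPM in siNC, a log2 fold change of -0.08 (SE 0.12, 95% interval -0.34 to 0.19). With 1 library left out it ranged from -0.21, without siXBP1 replicate 3, to -0.01, without siXBP1 replicate 2.

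UGGT2 (gene ID 55757, chromosome 13, 95801580 to 96053401) had 27.7, 27.4 and 39.1 CPM in siXBP1 libraries, against 25.8, 32.8 and 33.8 CPM in siNC libraries. Here siXBP1 replicate 3 was the highest and siNC replicate 1 the lowest of all 6 libraries. Means were 31.4 ± 6.64 CPM in siXBP1 and 30.8 ± 4.34 CPM in siNC, a log2 fold change of 0.03 (SE 0.17, 95% interval -0.34 to 0.40). The estimate turned to -0.17 without siXBP1 replicate 3, to -0.09 without siNC replicate 1 and to -0.27 without both.

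The lowest count of any cycle gene was 1004, for UGGT2 in siNC replicate 1, where counting error would be 3.16% of the value if counts were independent, and more if both mates of a pair were counted. The replicates of UGGT2 varied by 21.2% in siXBP1 and 14.1% in siNC (SD over mean). UGGT2 counts were 0.152, 0.159 and 0.174 of UGGT1 counts in siXBP1 libraries, against 0.140, 0.151 and 0.161 in siNC libraries. These ratios are of raw counts, not per transcript length, and so do not rank the levels of the genes. Their mean log2 value differed by 0.10 (two-sided exact permutation test, p = 0.4, smallest possible 0.1), and by -0.0037 without both end libraries.

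**Figure D2:**
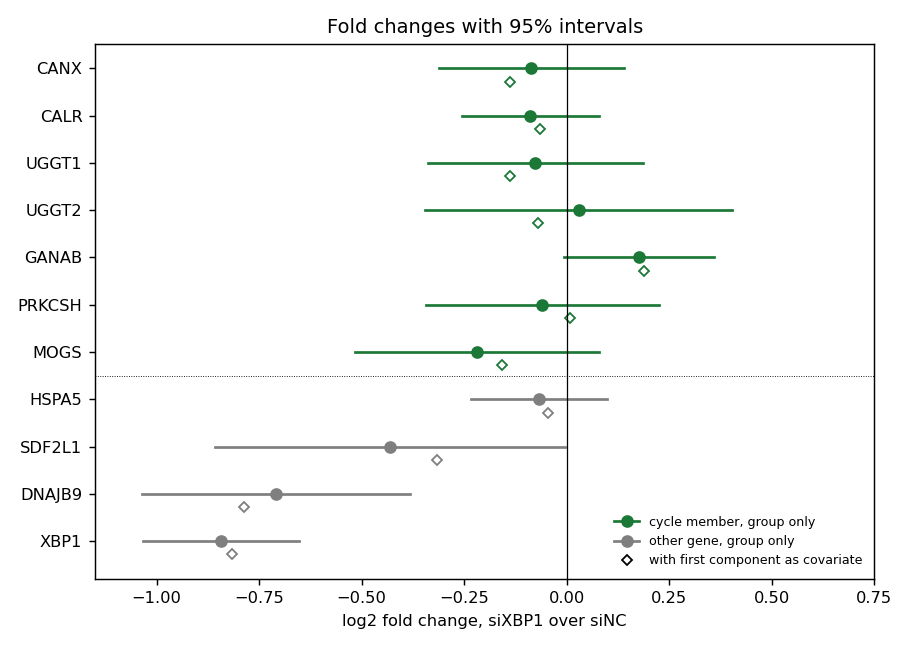
Log2 fold change (siXBP1 over siNC) of the 7 cycle genes and of 4 genes of the unfolded protein response, as dots with 95% intervals from edgeR with group as the only term, and as open diamonds with the first component as a covariate. Intervals of all 7 cycle genes include 0, and XBP1 (-0.84) and DNAJB9 (-0.71) lie furthest below 0.

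The cycle genes fell into opposing patterns across the 6 libraries that cut across the groups. CANX, UGGT1 and UGGT2 were high in siXBP1 replicate 3 and low in siXBP1 replicates 1 and 2 and in siNC replicate 1, while PRKCSH and MOGS were lowest in siXBP1 replicate 3 and highest in siNC replicate 1. CALR followed the direction of PRKCSH and MOGS with smaller steps, and GANAB followed neither.

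Within the siXBP1 group, replicate 3 differed from the mean of replicates 1 and 2 by 0.50 for UGGT2, 0.34 for UGGT1 and 0.27 for CANX in log2 CPM. The same difference was -0.36 for PRKCSH, -0.25 for MOGS, -0.11 for CALR and -0.10 for GANAB. Within the siNC group, replicate 1 differed from the mean of replicates 2 and 3 in the opposite direction for all 7 genes, by -0.37 for UGGT2, -0.22 for UGGT1 and CANX, 0.28 for PRKCSH, 0.27 for MOGS, 0.11 for CALR and 0.02 for GANAB. These within-group steps were larger than the siXBP1 to siNC difference for every cycle gene except GANAB.

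**Figure D3:**
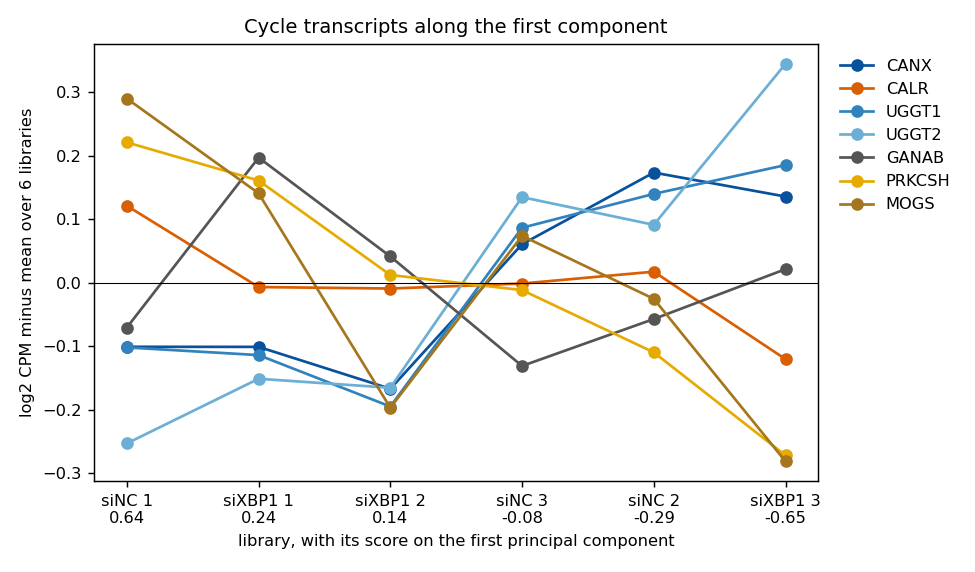
Log2 CPM of each cycle gene minus its mean over the 6 libraries, with libraries ordered by their score on the first principal component (printed under each name). UGGT2 and UGGT1 are highest in siXBP1 replicate 3 at the right end, and CANX in siNC replicate 2 beside it. PRKCSH and MOGS are lowest in siXBP1 replicate 3.

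The patterns went with the length of the genes on the chromosome. UGGT2 spans 251822 bases, UGGT1 104478 and CANX 52986, the longest of the 7, against 21785 for GANAB, 15334 for PRKCSH, 5881 for CALR and 4326 for MOGS (GRCh38.p14). Genes in general showed the same order. With the tested genes split by span into 5 groups of equal size, the median of siXBP1 replicate 3 minus siXBP1 replicates 1 and 2 was 0.21 in the group with the longest spans and -0.23 in the group with the shortest. For siNC replicate 1 minus siNC replicates 2 and 3 the medians were -0.21 in the longest and 0.21 in the shortest group. CALR, in the shortest group, differed less than its median in both comparisons, and the other 6 cycle genes differed more than the median of their own group. The part of this trend in the siXBP1 to siNC estimates of the cycle was not tested beyond an alternative that removed it, in which 0 of the 7 genes were called and GANAB had 0.18.

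**Figure D4:**
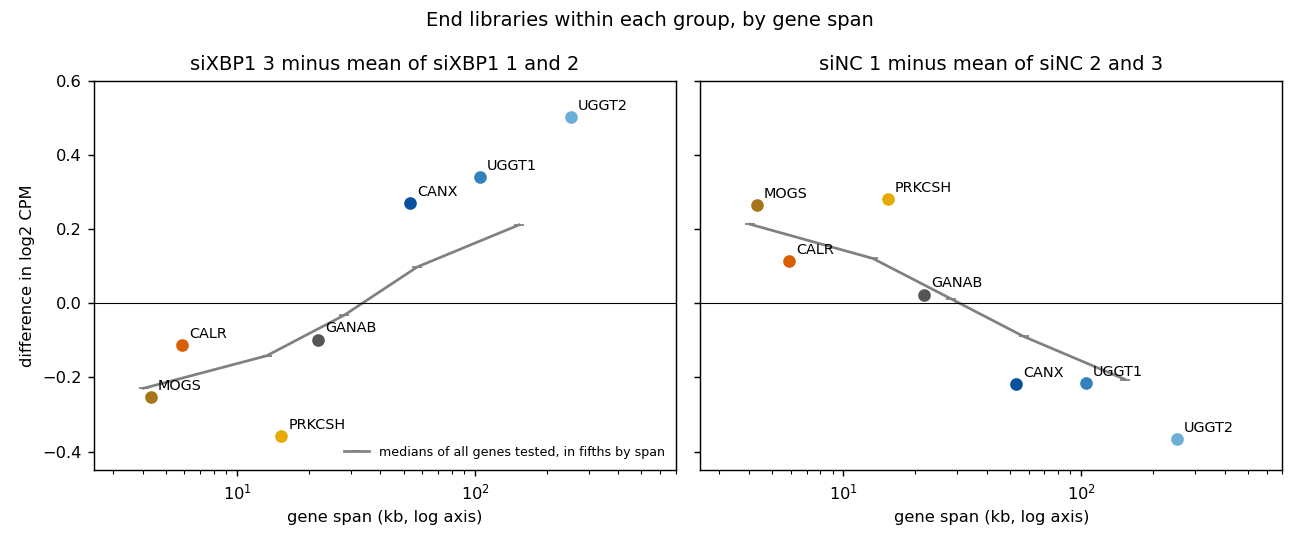
Difference in log2 CPM between the end library of each group and the mean of its other 2 libraries, against gene span on a log axis, for siXBP1 (left) and siNC (right). Grey ticks joined by a line are medians of all tested genes in 5 groups by span, and the cycle genes run in the same direction, with UGGT2 at 0.50 in siXBP1 and -0.37 in siNC.

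Without both end libraries, edgeR called 493 genes lower (3.42%) and 209 higher (1.45%) on the remaining 2 siXBP1 and 2 siNC libraries. None of the 7 cycle genes was among them. The nearest were CANX (log2 fold change -0.25, SE 0.08, adjusted p = 0.0591) and UGGT1 (-0.26, SE 0.08, adjusted p = 0.0621), which were lower in siXBP1, and GANAB (0.22, SE 0.08, adjusted p = 0.128), which was higher. CALR stood at -0.01 (SE 0.08). The end libraries were picked by scores from these same counts. Leaving them out narrows the spread within groups, so SEs and adjusted p-values of this fit may be too small. The 2 siXBP1 libraries left both lie above the 2 siNC libraries left on the first component. Estimates and calls of this fit may therefore include that component, which was not tested. When the first-component score was added as a covariate, edgeR called 0.488% of all genes lower and 0.711% higher, and again 0 of the 7. Estimates were lower for 5 and higher for 2 of the 7, beside 48.8% lower and 51.2% higher among all genes. That covariate comes from the same 6 libraries, so its SEs may be too small. In that fit GANAB had 0.19 (SE 0.06, adjusted p = 0.12) and CANX -0.14 (SE 0.05, adjusted p = 0.248), and PRKCSH (0.0078, SE 0.06) and UGGT2 (-0.07, SE 0.08) had the opposite sign to the fit without it.

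**Figure D5:**
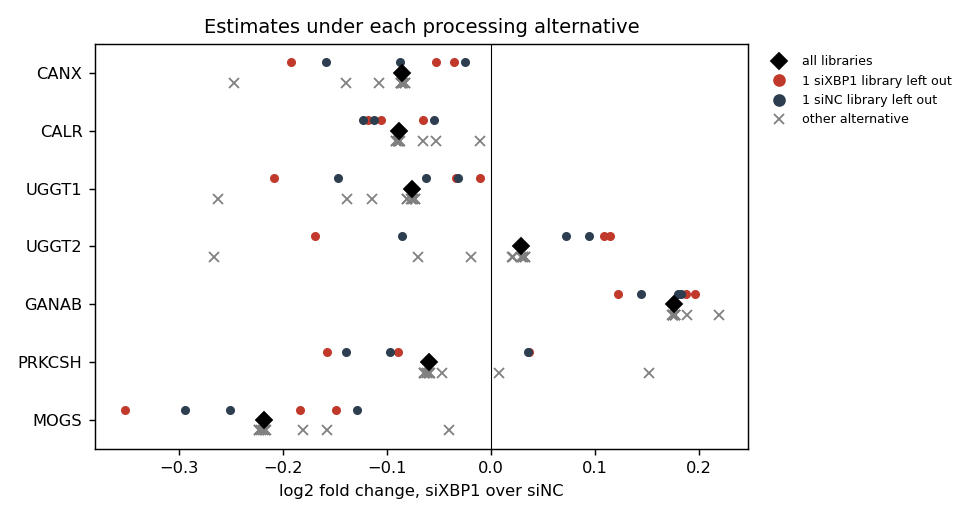
Log2 fold change (siXBP1 over siNC) of each cycle gene with all libraries (diamonds), with 1 library left out (red dots for siXBP1, dark dots for siNC) and under the other alternatives (crosses). GANAB stays between 0.12 and 0.22, and CANX, CALR, UGGT1 and MOGS stay below 0, while UGGT2 and PRKCSH lie on both sides.

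CANX and UGGT1 had nearly the same profile over the 6 libraries. The root-mean-square difference of their centred log2 CPM was 0.03, the smallest among all pairs of cycle genes, and UGGT1 ranked 12 by closeness to CANX among 9597 genes whose mean reached 10 CPM. The 3 closest to CANX were EML1 (0.02), PHF10 (0.02) and CPS1 (0.02), a urea cycle enzyme, at a mean of 1077 CPM. CALR ranked 4217 by closeness to CANX. The 3 genes closest to CALR were PIAS3, NOP2 and DDX23 (0.02 each), and its nearest cycle gene, PRKCSH, ranked 3165. The subunits GANAB and PRKCSH differed by 0.18, and the widest difference was 0.36, between UGGT2 and PRKCSH.

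Summed over the 7 genes, the cycle held 5604, 5385 and 5615 CPM in siXBP1 libraries, against 5764, 5912 and 5709 CPM in siNC libraries. Every siXBP1 sum lay below every siNC sum, with means of 5535 ± 130 CPM in siXBP1 and 5795 ± 105 CPM in siNC (SD, n = 3 each). CALR made up 39.4% to 45.4% and CANX 33.2% to 40.2% of these counts, so the sum mostly describes the chaperones. No test was made on it. Among single genes tested 3.74% were lower without overlap, and no such share was taken for sums of genes.

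Genes around the cycle were read from lists chosen with earlier results of these data known, and edgeR called 0 of their genes in either direction. Of 6 genes that supply or attach the glucoses, 3 had lower and 3 higher estimates (median log2 fold change 0.01). The largest were ALG10B (0.34, SE 0.25) and ALG10 (0.16, SE 0.18), near-identical glucosyltransferases whose reads may be shared. Without siXBP1 replicate 3 the estimates were -0.0092 for ALG10B and -0.05 for ALG10. UGP2, which makes UDP-glucose, had -0.08 (SE 0.10).

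Of 8 partners and homologues of the chaperones 7 were tested, and 5 had lower estimates (median -0.09). PPIB, a prolyl isomerase that binds the chaperones, had 145, 152 and 138 CPM in siXBP1 libraries, against 195.5, 176 and 163 CPM in siNC libraries, a log2 fold change of -0.29 (SE 0.10, adjusted p = 1.00). PDIA3, the disulfide isomerase that works with CANX and CALR, had -0.10 (SE 0.07). PPIB, PDIA3 and the ER lectin MLEC (-0.12, SE 0.08), the last named after its values were seen, were lower without overlap in CPM, that is 3 of 7, where 3.74% of all genes tested were. PDIA3 had 895 CPM in siXBP1 replicate 2 against 904 CPM in siNC replicate 3, and these overlap with the scaling factors of the edgeR test. CLGN, the homologue of CANX best known from testis, had 0.23 (SE 0.17), and CALR3 was below the filter.

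Of 6 genes for mannose trimming and for lectins of ER-associated degradation, which take over glycoproteins that leave the cycle unfolded, 6 had lower estimates (median -0.07). EDEM1, which feeds such proteins to degradation, had the lowest (-0.32, SE 0.10, adjusted p = 1.00) and was lower without overlap, with ERLEC1 at -0.16 (SE 0.11) and OS9 at -0.03 (SE 0.09). Of 5 lectins and partners that carry folded glycoproteins out of the ER 4 were tested, and 3 had lower estimates (median -0.06), with LMAN2 at -0.19 (SE 0.12) and LMAN1 at -0.07 (SE 0.15). Among 3 genes listed as other glucosidases or an endomannosidase, the glucosidases GAA (-0.18, SE 0.16) and GANC (0.16, SE 0.15) lay on both sides of 0.

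All 10 ER chaperones and co-chaperones outside the cycle had lower estimates, with a median of -0.21 where the cycle had -0.08. DNAJB9, a co-chaperone of BiP, had 43.1, 43.9 and 56.6 CPM in siXBP1 libraries, against 65.9, 81.9 and 87.1 CPM in siNC libraries. The groups did not overlap, and its log2 fold change was -0.71 (SE 0.15, adjusted p = 0.818 with edgeR and 0.0161 with DESeq2). SDF2L1, another BiP cofactor, had -0.43 (SE 0.19), with -0.29 without siXBP1 replicate 3, -0.25 without siNC replicate 1 and a lowest value of -0.57 without siXBP1 replicate 2. HSPA5 had -0.07 (SE 0.07), with a range of -0.12 to -0.03 when each library was left out. DNAJB9, HYOU1 (-0.35, SE 0.08), PDIA4 (-0.26, SE 0.08) and DNAJB11 (-0.16, SE 0.08) were lower without overlap, the last 3 named after their values were seen, that is 4 of 10 where 3.74% of all genes tested were. With the first component as a covariate, 5 of these 10 were called lower (DNAJB9, HYOU1, PDIA4, DNAJC3 and SDF2L1), as were PPIB and EDEM1, where 0.488% of all genes were and 0 of the 7 cycle genes. Without both end libraries the calls were lost for PPIB (-0.18, SE 0.09, adjusted p = 0.246, against -0.26 with the covariate), PDIA4 (-0.17, SE 0.08, adjusted p = 0.244, against -0.23) and SDF2L1 (-0.09, SE 0.10, adjusted p = 0.716, against -0.32). They held for DNAJB9, HYOU1, DNAJC3 and EDEM1. LMAN1 (-0.34, SE 0.08, adjusted p = 0.014) and ERLEC1 (-0.30, SE 0.09, adjusted p = 0.0466) were called lower, where 3.42% of all genes were. Both of these fits rest on the first component of the same libraries, so neither is an independent check of the other. Without both end libraries the groups also lie apart on that component. Calls lost or gained there may include that difference, which was not tested. With group as the only term, edgeR called none of the genes named in these calls. Whether these lists differ from the cycle was not tested.

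Genes with an ERSE in their window numbered 16 among those tested, XBP1 itself, HSPA5, CANX and CALR included. Of these 14 had lower and 2 higher estimates, with a median of -0.09, beside 47.2% lower and a median of 0.0096 over all genes tested. Values ran from -0.84, for XBP1, to 0.31. XBP1 was the 1 gene called, and 5 genes were lower without overlap in CPM, where 3.74% of all genes were, and 0 higher. CALR is among the 5, though its separation depends on the scaling. As the target of the siRNA, XBP1 was lowered by design, and it is counted among the 14 and the 5. With the first component as a covariate, 4 of the 16 were called lower and 0 higher, where 0.488% of all genes were called lower and 0.711% higher. These were XBP1, FICD, ERO1B and CRELD2, the last 3 named after their values were seen, and neither CANX nor CALR was among them.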

How the data were processed

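Counts per gene from 6 RNA-seq libraries were analysed. The authors deposited whole-number read counts, not normalized, for 18555 NCBI Gene IDs. Alignment with STAR 2.5.2a, counting with featureCounts 1.5.0 and the hg38 build are named in the submitters' processing notes. The sources used here do not state the strand setting or the annotation. The kit was strand-specific, per the labels' protocols. RefSeq names (GRCh38.p14) were found for 18526 IDs, and the other 29 held 0.00349% of counts. Even values made up 75.8% to 80.5% of counts from 1 to 40, so fragments are probably fewer than counts. No libraries agreed within sampling noise.

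Groups came from sample titles. After filterByExpr and TMM, the quasi-likelihood test of edgeR 4.0.16 was run (R 4.3.3), group as the only term, 4 residual degrees of freedom, two-sided. The SE is the size of the log2 fold change over the square root of F. The procedure was tested on data simulated gene by gene without a shared component. Unlike those data, these libraries have a strong first component, which that test does not cover. Components were taken from the 11528 genes whose mean count reached 100, on log2 CPM. Alternatives were other size factors, library size alone, other filters (none, or 1 CPM in 3 libraries), DESeq2 1.42.0, limma-voom (limma 3.58.1), the replicate number as a block, left-out libraries and the first component as a covariate. Removal of the trend on gene span, known for 14328 genes tested, was chosen after seeing the data.

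The cycle genes and lists were chosen with earlier results of these data known. Named are all cycle genes, XBP1, HSPA5 and DNAJB9, from each list the called genes or otherwise those with the 2 largest changes and the highest mean CPM, and the 3 genes closest to CANX and to CALR. Exceptions are marked.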

Additional observations from a re-analysis of the deposited data

How the results depend on the processing

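All 112 estimates of the 7 cycle genes under 16 alternatives missed the threshold, with a lowest adjusted p of 0.0591 (CANX without both end libraries). Their median log2 fold change lay between -0.15 and -0.03, and 5 or 6 estimates were lower in each. The count of all genes called lower, 1 with all libraries, became 9 with DESeq2, 70 with the first component as a covariate and 493 without both end libraries, and ranged from 0 to 1 with 1 library left out. The count called higher, 0, became 6, 102 and 209 in those 3 fits and 1 with the gene span trend removed. Correlations of deviations were 0.60, -0.36 and 0.43 between siXBP1 and siNC libraries of the same replicate number. Between libraries of different numbers they ran from -0.75 to 0.65. With 3 libraries per group these values cannot decide whether the numbers pair the libraries. With the replicate block the median was -0.08 and 1 gene was called lower. The block lowered the SE of every cycle gene but GANAB, for UGGT2 from 0.17 to 0.12.

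With the first component as a covariate, the sign turned for UGGT2 (-0.070), PRKCSH (0.0078) and OS9 (0.0079). Without both end libraries it turned for UGGT2 (-0.27), PRKCSH (0.15), HSPA5 (0.0071), ALG10B (-0.18), ALG10 (-0.10), OS9 (0.085), GAA (0.026), GANC (-0.014), the CALR to CANX ratio (0.24) and the UGGT2 to UGGT1 ratio (-0.0037). With the gene span trend removed it turned for UGGT2 (-0.019). With 1 library left out, values ranged from -0.17 to 0.11 for UGGT2, -0.16 to 0.037 for PRKCSH, -0.0092 to 0.50 for ALG10B, -0.054 to 0.28 for ALG10, -0.064 to 0.022 for OS9, -0.22 to 0.014 for LMAN1 and -0.082 to 0.12 for the CALR to CANX ratio. XBP1 stayed between -0.88 and -0.80, but its adjusted p passed 0.05 without siXBP1 replicate 1 (0.475) or 2 (0.284) or siNC replicate 2 (0.175) or 3 (0.213). The causes were not tested.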

Other observations

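Genes with an ERSE-II in their RefSeq window numbered 15 among those tested, none of them in the cycle, and 11 had lower and 4 higher estimates in siXBP1 (median log2 fold change -0.14), with 6 lower and 0 higher without overlap. Genes with a UPRE numbered 136, with 84 lower and 52 higher estimates (median -0.03), 10 lower and 5 higher without overlap. Among all genes tested, 3.74% were lower and 5.01% higher without overlap. With group as the only term edgeR called 0 genes of either group. With the first component as a covariate it called 3 of the 15 ERSE-II genes lower and 0 higher, and 5 of the 136 UPRE genes lower and 2 higher, where 0.488% of all genes were called lower and 0.711% higher. The 3 were HYOU1, SDF2L1 and SHCBP1, named after their values were seen.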
